A study of Saccharomyces cerevisiae with 6 samples.

Results

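The genes described here encode the enzymes that make isoleucine, valine and leucine in *Saccharomyces cerevisiae*. They were chosen by name, as *ILV1*, *ILV2*, *ILV3*, *ILV5*, *ILV6*, *LEU1*, *LEU2*, *LEU4*, *BAT1* and *BAT2*, and were 10 of 5656 genes measured. Transcript levels came from 3 arrays of cultures given 70 μM pterostilbene, a plant stilbene with antifungal activity, and 3 arrays of cultures that received only its solvent, 0.25% dimethyl sulfoxide. Both groups were independent cultures of the haploid strain S288C (mating type alpha) in buffered synthetic dextrose medium with no amino acids added. The labels call 70 μM the IC50 concentration, a dose defined by its inhibition of growth. Compound or solvent was added at an optical density of 0.2 and cells were harvested at 0.5. Time to harvest may therefore differ between the groups, and an effect of growth rate cannot be told apart from an effect of the compound. The compound came dissolved in dimethyl sulfoxide, but the solvent percentage of the pterostilbene cultures is not given in the labels, so an effect of unequal solvent cannot be told apart either.

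In yeast the branched-chain amino acids share their enzymes. Threonine deaminase (*ILV1*) starts the isoleucine route, and acetolactate synthase (*ILV2* with its regulatory subunit *ILV6*), acetohydroxyacid reductoisomerase (*ILV5*) and dihydroxyacid dehydratase (*ILV3*) then serve isoleucine and valine together, all in the mitochondrion. Leucine is made from the keto acid of valine by α-isopropylmalate synthase (*LEU4*), isopropylmalate isomerase (*LEU1*) and β-isopropylmalate dehydrogenase (*LEU2*), and the aminotransferases *BAT1* and *BAT2* finish all of the amino acids. Known regulators are Gcn4p, the activator of amino acid synthesis under starvation, and Leu3p, which activates when its ligand α-isopropylmalate is present. In medium without amino acids, cells depend on this pathway.

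The deposited values are signals, the brightness on a linear intensity scale of the probe sets (several short oligonucleotides each, matched to 1 transcript) on the Affymetrix Yeast Genome S98 array. The arrays as deposited had nearly equal trimmed means, 500.4 to 500.5, and median signals of the probe sets tested were 162 to 170.2 on the pterostilbene arrays and 119 to 124 on the solvent arrays. Signals are therefore relative to the other transcripts on an array, and less of a transcript per cell cannot be told apart from more of the others. The summed signal of 4 alpha-specific markers was 4896 to 5972 with pterostilbene and 20011 to 20956 with solvent, most of it with pterostilbene from *MF(ALPHA)1*, and all 4 fell. *SAG1*, for example, fell 18.6-fold. The summed signal of 5 a-specific markers was 721 to 984 with pterostilbene and 359.5 to 488 with solvent, and of these 3 rose, 1 (*STE2*) fell and 1 did not pass. Their part in the results below was not tested.

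With pterostilbene the largest falls of the pathway were in *LEU2* and *LEU1*, while 1 enzyme gene, that of the reductoisomerase *ILV5*, was higher. By limma at an adjusted p under 0.05 (Benjamini-Hochberg, over all probe sets), 6 of 10 genes fell, 1 rose and 3 did not pass. Over all genes the test called 18.4% lower and 35.8% higher. The median log2 fold change, pterostilbene over solvent, was -0.55 for the pathway and 0.22 for all genes. However, 9 of the 10 probe sets lay among the brightest 10% of genes, and of those bright genes 51.2% fell, 14.1% rose and the median was -0.37. The share of the pathway that fell was thus closer to that of bright genes than to that of all genes. All 3 pterostilbene signals lay below all 3 solvent signals for 7 of the 10 and above them for 1, where the shares over all genes were 24.5% below and 44.2% above.

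**Figure D1:**
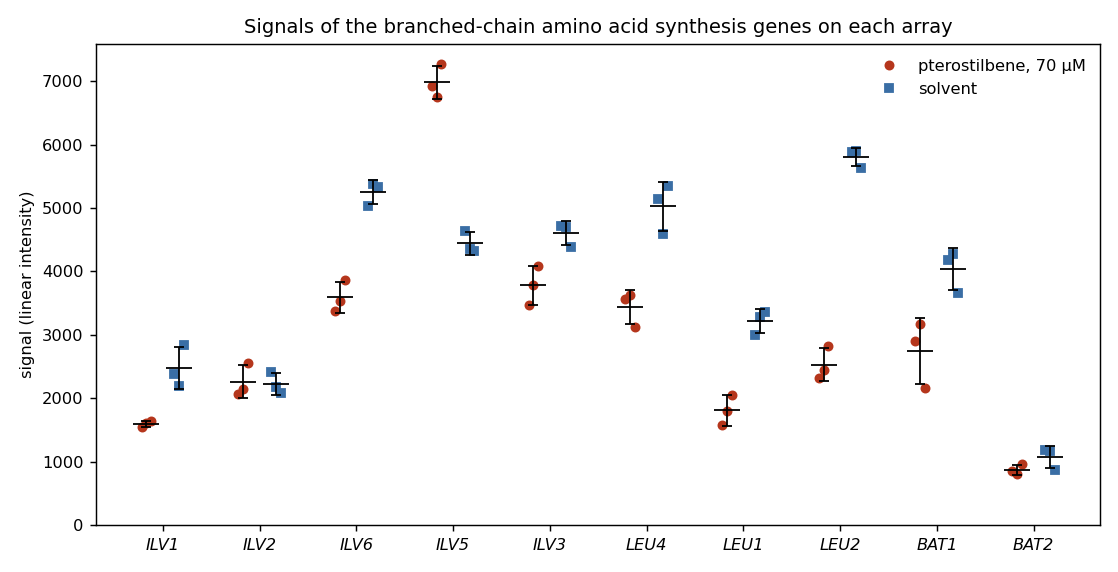
Signal (linear intensity) of each gene on each array, in pathway order. Points are single arrays, with 3 pterostilbene arrays (circles) left of 3 solvent arrays (squares), and black bars give the mean ± SD. The groups overlap for *ILV2* and *BAT2*, *ILV5* is higher with pterostilbene, and the other 7 genes are lower.

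*ILV1* (YER086W), threonine deaminase, is the only member specific to isoleucine. Its signals were 1546, 1602 and 1632 on the pterostilbene arrays, against 2386, 2192 and 2846 on the solvent arrays. The groups did not overlap, and the solvent arrays were the more variable. *ILV1* had a log2 fold change of -0.63 (SE 0.13, limma adjusted p = 0.010), or 64.8% of the solvent level.

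Acetolactate synthase has a catalytic and a regulatory subunit. *ILV2* (YMR108W), the catalytic subunit, had signals of 2070.4, 2148 and 2556 with pterostilbene and 2420.4, 2179 and 2082 with solvent. These values overlapped throughout. The log2 fold change of *ILV2* was 0.017 (95% interval -0.30 to 0.33, limma adjusted p = 0.93). *ILV6* (YCL009C), the regulatory subunit that makes the enzyme sensitive to valine, had signals of 3379, 3536 and 3865 with pterostilbene and 5035, 5381 and 5336 with solvent. Each pterostilbene array was below each solvent array. *ILV6* fell (-0.55, SE 0.10, limma adjusted p = 0.0070), but not after quantile normalization (-0.31, adjusted p = 0.068) or cyclic loess (-0.22, adjusted p = 0.12), scalings that remove differences which follow brightness.

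The log2 difference *ILV6* minus *ILV2* within an array was 0.71, 0.72 and 0.60 on the pterostilbene arrays and 1.06, 1.30 and 1.36 on the solvent arrays. The groups did not overlap, and the regulatory subunit was lower relative to the catalytic one by 0.57 on average. The exact permutation test (two-sided, n = 3 per group) gave p = 0.1, the smallest value it allows, and 0.15 after adjustment over the 3 pairs of partner genes compared.

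*ILV5* (YLR355C), the reductoisomerase, also binds mitochondrial DNA and is needed for its stability. Its signals were 6921, 6761 and 7267 with pterostilbene and 4644, 4352 and 4328 with solvent. All pterostilbene arrays were higher, and replicates lay close together in both groups. *ILV5* rose by 0.65 on the log2 scale (SE 0.09, limma adjusted p = 0.0029), a 1.57-fold increase. After centring each array on its median, which lowers every gene, the change of *ILV5* was 0.20 and did not pass (adjusted p = 0.091), and under the other scalings it was 0.90 to 1.02.

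*ILV3* (YJR016C), dihydroxyacid dehydratase, is an iron-sulfur enzyme. Signals of *ILV3* were 3478, 3780.3 and 4088 on the pterostilbene arrays and 4722, 4705 and 4388 on the solvent arrays. The groups did not overlap, with pterostilbene lower. The log2 fold change of *ILV3* was -0.29 (95% interval -0.55 to -0.026), and it did not pass the test (limma adjusted p = 0.070). *ILV3* passed in 5 of 17 alternatives, namely median centring (-0.74, adjusted p = 0.0017), array weights (0.014), trend and robust moderation (0.026), the methods' t-test (0.041) and without pterostilbene replicate C (-0.34, adjusted p = 0.042). Its value was near 0 after quantile normalization (-0.049), reference gene centring (-0.041) and cyclic loess (0.030).

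**Figure D2:**
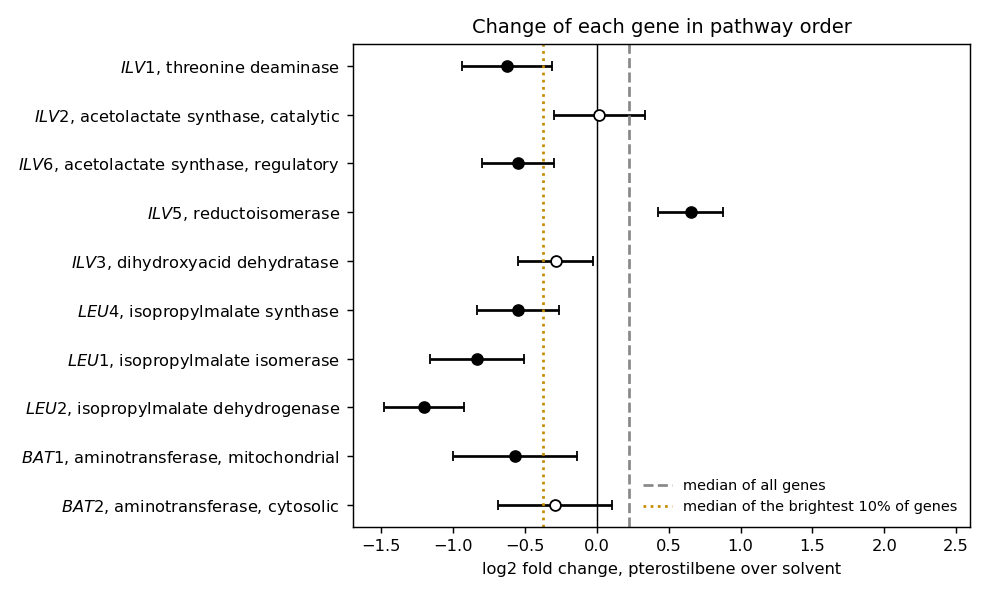
Log2 fold change, pterostilbene over solvent, of each gene in pathway order, with its 95% interval from limma (3 arrays per group). Filled circles passed the test at an adjusted p under 0.05, and the dashed and dotted lines are the medians of all genes (0.22) and of the brightest 10% of genes (-0.37). *LEU2* has the lowest value, -1.20, and *ILV5* the highest, 0.65.

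Each of the 3 leucine-specific genes fell. *LEU4* (YNL104C), α-isopropylmalate synthase, had signals of 3564, 3631 and 3123 on the pterostilbene arrays and 5136, 4591 and 5354 on the solvent arrays. The groups did not overlap. *LEU4* had a log2 fold change of -0.55 (SE 0.12, limma adjusted p = 0.012), which did not pass after quantile normalization (-0.31, adjusted p = 0.070), reference gene centring (-0.30, adjusted p = 0.073) or cyclic loess (-0.23, adjusted p = 0.15).

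*LEU1* (YGL009C), isopropylmalate isomerase, is a cytosolic iron-sulfur enzyme. Its signals were 1574, 1798 and 2055 with pterostilbene and 3004, 3279 and 3363 with solvent. The highest pterostilbene array was well below the lowest solvent array. *LEU1* fell by 0.84 on the log2 scale (SE 0.13, limma adjusted p = 0.0043), to 56.0% of the solvent level.

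*LEU2* (YCL018W), β-isopropylmalate dehydrogenase, showed the deepest fall of the pathway. Its brightest probe set had signals of 2316, 2442 and 2822 on the pterostilbene arrays, against 5883, 5895 and 5635 on the solvent arrays. The solvent arrays were nearly equal, and every pterostilbene array was far below them. *LEU2* had a log2 fold change of -1.20 (SE 0.11, limma adjusted p = 7.7e-04), a 2.30-fold fall, the only one of at least 2-fold in the pathway. Over all genes, 3.98% fell by at least 2-fold. *LEU2* was also the only member with more than 1 probe set. The second had signals of 972.5, 1026 and 1320 with pterostilbene and 2946, 3042 and 2874 with solvent, a log2 fold change of -1.43. The third had 501, 666 and 749 with pterostilbene and 1752, 1874 and 1739.5 with solvent, a log2 fold change of -1.51. All 3 probe sets of *LEU2* fell with no overlap of the groups, and the brightest gave the smallest change.

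The branched-chain aminotransferases are a pair of paralogs. *BAT1* (YHR208W), the mitochondrial form, had signals of 2906, 3173 and 2166 with pterostilbene and 4180.3, 4282 and 3661 with solvent. The groups did not overlap, but pterostilbene replicate C was far below the other 2 arrays of its group. *BAT1* fell with a log2 fold change of -0.57 (SE 0.17, limma adjusted p = 0.040). This call was lost without solvent replicate A (adjusted p = 0.11), B (0.11) or C (0.058) and without pterostilbene replicate A (0.075). *BAT1* also did not pass under the methods' t-test (adjusted p = 0.052), quantile normalization (-0.35), reference gene centring (-0.33) or cyclic loess (-0.30).

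*BAT2* (YJR148W), the cytosolic form, was the dimmest member. Its signals were 849.7, 806 and 955 with pterostilbene and 1182, 1171 and 869 with solvent. Solvent replicate C lay within the range of the pterostilbene arrays. The log2 fold change of *BAT2* was -0.29 (95% interval -0.69 to 0.10, limma adjusted p = 0.18). *BAT2* passed without solvent replicate C (-0.44, adjusted p = 0.045), after median centring (-0.75, 0.0095) and with array weights (-0.45, 0.016). The difference *BAT2* minus *BAT1* was -1.77, -1.98 and -1.18 on the pterostilbene arrays and -1.82, -1.87 and -2.07 on the solvent arrays. These overlapped, and the changes of the paralogs were not distinguished (difference 0.28, exact permutation p = 0.4, also after adjustment), and the difference was -0.020 after quantile normalization. Whether the probes of such paralogs bind each other's transcripts could not be examined here.

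Within the pterostilbene group, replicate C was the highest array for 8 of 10 genes, and the lowest for *LEU4* and *BAT1*. Over all 5656 genes it was the highest for 60.3%, and its median signal was also the highest of the 3 (170.2). The SD of log2 signals within a group ranged from 0.037, for *LEU2* with solvent, to 0.29, for *BAT1* with pterostilbene.

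Because the brightest genes had a lower median change than all genes on the deposited scale, the changes were also compared under other scalings of the arrays. The calls for *LEU2*, *LEU1* and *ILV1* held under each scaling tried, and these were the 3 genes that fell after quantile normalization and after cyclic loess. *LEU2* ranged from -1.66 to -0.90, *LEU1* from -1.29 to -0.59 and *ILV1* from -1.08 to -0.38 over all alternatives. Median centring turned *ILV2* to a fall (-0.44, adjusted p = 0.020).

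**Figure D3:**
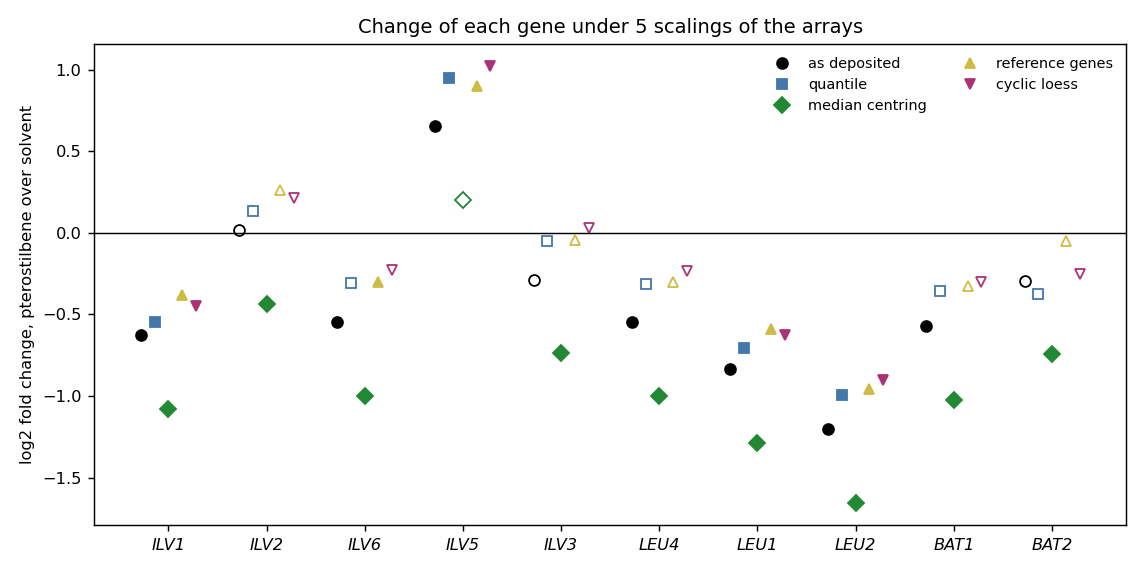
Log2 fold change, pterostilbene over solvent, of each gene with the signals as deposited and under 4 other scalings. Filled symbols passed limma's test at an adjusted p under 0.05. *ILV1*, *LEU1* and *LEU2* are filled and below 0 under each scaling, while *ILV2* and *ILV3* lie on either side of 0.

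Leu3p targets and related genes outside the pathway were examined next. *LEU9*, a paralog of *LEU4* for the same reaction, had signals of 217, 224 and 247.5 with pterostilbene and 437, 427 and 499 with solvent. It fell by 0.99 on the log2 scale (SE 0.11, limma adjusted p = 0.0015), with no overlap of the groups. The difference *LEU9* minus *LEU4* was -4.04, -4.02 and -3.66 on the pterostilbene arrays and -3.55, -3.43 and -3.42 on the solvent arrays, so the fall of *LEU9* was deeper by 0.44. The exact permutation test gave the smallest possible value, p = 0.1 (0.15 adjusted), and the difference was -0.99 after quantile normalization and -0.98 after cyclic loess.

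*OAC1*, a mitochondrial carrier that exports α-isopropylmalate, had signals of 1174, 1248 and 1456 with pterostilbene and 2957, 2819.7 and 3206 with solvent. It fell by an amount close to that of *LEU2* (log2 fold change -1.22, SE 0.12, limma adjusted p = 0.0010). *GDH1*, a glutamate dehydrogenase that Leu3p also activates, fell by 0.80 (adjusted p = 0.0076). *LEU3* itself had signals of 115, 119 and 105 with pterostilbene and 122, 92.4 and 103 with solvent. These overlapped (log2 fold change 0.10, 95% interval -0.23 to 0.44, limma adjusted p = 0.56). The sign of *LEU3* depended on the scaling, though it passed under none. It was -0.39 after quantile normalization (adjusted p = 0.055), -0.35 after median centring (0.074) and -0.33 after cyclic loess (0.11). After reference gene centring it was 0.35 (adjusted p = 0.078). The fifth gene of this list, *BAP2*, went the opposite way.

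*BAP2* encodes a permease for branched-chain amino acids, and its transcript showed the largest difference among the genes examined. Its signals were 751, 765 and 871 on the pterostilbene arrays and 28.5, 21.7 and 28.3 on the solvent arrays. *BAP2* rose 30.6-fold (log2 fold change 4.93, SE 0.15, limma adjusted p = 9.6e-05). *BAP3*, its paralog, had signals of 124, 144 and 147 with pterostilbene and 6.3, 4.1 and 18.4 with solvent, and *TAT1*, a permease for valine, leucine, isoleucine and aromatic amino acids, had 234, 167 and 226 with pterostilbene and 56.0, 47.5 and 52.2 with solvent. Neither pair of groups overlapped. *BAP3*, whose solvent signals were near the bottom of the scale, rose by 4.14 (SE 0.55, limma adjusted p = 0.0024), and *TAT1* rose 3.99-fold (adjusted p = 5.4e-04). *AGP1*, a broad permease, rose by 0.84 (adjusted p = 0.0061), while *GNP1*, a permease for glutamine and leucine among others, had -0.30 (adjusted p = 0.069) and *SSY1*, the amino acid sensor of the plasma membrane, 0.41 (adjusted p = 0.089).

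Thus 4 of 6 genes of uptake and sensing rose, beside 35.8% of all genes, and the 4 calls held under each alternative. The other genes depended on the processing. *GNP1* fell in 5 of 17 alternatives, among them median centring (-0.76, adjusted p = 0.0023) and array weights (-0.39, 0.0096). *SSY1* rose in 3, among them reference gene centring (0.65, adjusted p = 0.020), but was -0.074 after quantile normalization. With 8.7 added to each signal before log2, *BAP2* had a log2 fold change of 4.53 and *BAP3* of 3.08.

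**Figure D4:**
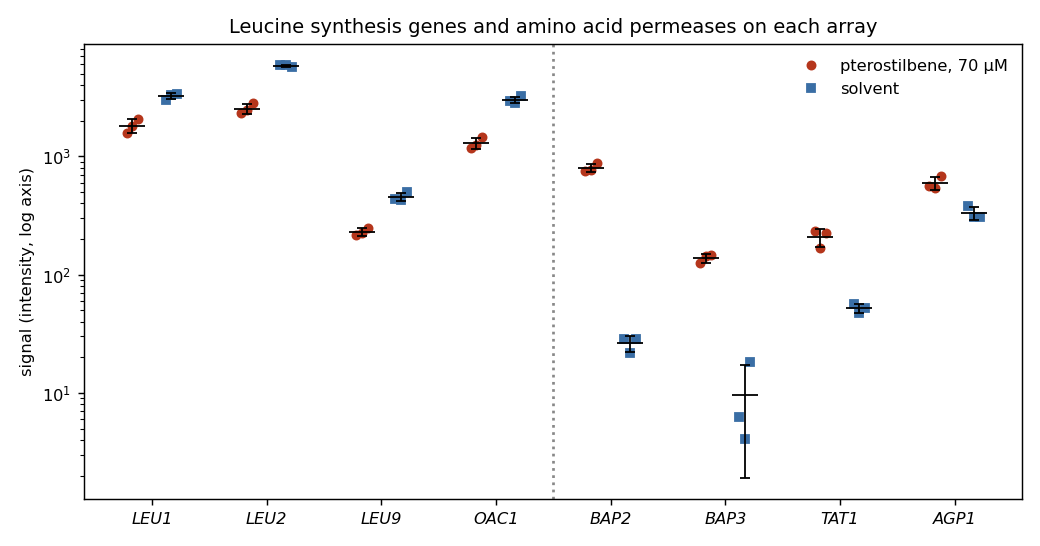
Signal (intensity, log axis) of leucine synthesis and transport genes (left of the dotted line) and the 4 amino acid permease genes that rose (right of it). The permease gene *GNP1*, which did not pass, is not drawn. Points are single arrays, pterostilbene (circles) left of solvent (squares), and bars give the mean ± SD of 3 arrays. The leucine genes are lower with pterostilbene, and *BAP2*, at 751 to 871 against 21.7 to 28.5, is higher.

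Threonine is the substrate of *ILV1*, and genes of its supply fell as well. Of 6 genes of this list, 4 fell and 2 did not pass, where 18.4% of all genes and 51.2% of the brightest 10% fell. The 4 became 2 with the replicate block. *THR1*, homoserine kinase, had signals of 2338, 2529.6 and 2625 with pterostilbene and 5726, 5437 and 6263 with solvent (log2 fold change -1.22, SE 0.11, limma adjusted p = 6.4e-04). *HOM6* (-0.85), *HOM3* (-0.61) and *HOM2* (-0.35), of the steps from aspartate to homoserine, also fell, but only *THR1* passed after reference gene centring, and *THR1* and *HOM3* after quantile normalization or cyclic loess. *HOM2* did not pass without any 1 of the solvent replicates A (adjusted p = 0.085), B (0.063) or C (0.072), nor without pterostilbene replicate A (0.070) or B (0.061). *THR4*, threonine synthase, had -0.18 and *CHA1*, the catabolic threonine deaminase, had 0.26, and neither passed. *THR4* fell, however, after median centring (-0.63, adjusted p = 0.0030) and with array weights (-0.23, 0.039), while it was 0.063 after reference gene centring. Signals of *CHA1* were low, 18.2 to 36.2.

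Genes of keto acid decarboxylases and of pantothenate supply went both ways. Of 5 keto acid decarboxylase genes, which open the route to fusel alcohols, 2 rose, a share close to the 35.8% of all genes. *PDC5* had signals of 1561, 1807 and 2077 with pterostilbene and 388.5, 353 and 395 with solvent (log2 fold change 2.25, SE 0.14, limma adjusted p = 2.4e-04), and *PDC6* rose by 1.13 (adjusted p = 0.0025). *PDC1*, the main pyruvate decarboxylase, had -0.11 and did not pass, but passed in opposite directions after cyclic loess (0.39) and median centring (-0.56). *ARO10* (0.92) and *THI3* (-0.20) did not pass. *THI3* fell, however, after quantile normalization (-0.54, adjusted p = 0.017), median centring (-0.65, 0.0073) and cyclic loess (-0.43, 0.035), and with array weights (-0.33, 0.034). Signals of *ARO10* were low, 5.2 to 16.1. It rose after reference gene centring (1.16, adjusted p = 0.038) and without solvent replicate B (1.23, 0.023), but was -0.0084 after quantile normalization. Of 4 genes of pantothenate supply, which draws on the keto acid of valine, *PAN5* fell (log2 fold change -0.42, limma adjusted p = 0.047). That is 25% of the list, where 18.4% of all genes and 51.2% of the brightest 10% fell. The call was lost without any 1 of the arrays except pterostilbene replicate C (adjusted p = 0.076 to 0.13). It was also lost after reference gene centring (-0.18, adjusted p = 0.27), under the methods' t-test (0.057) and with the replicate block (0.087). *ECM31* (0.21), *PAN6* (-0.34) and *FEN2* (-0.011) did not pass. *FEN2* fell, however, after quantile normalization (-0.53, adjusted p = 0.014), median centring (-0.46, 0.015) and cyclic loess (-0.46, 0.017). *PAN6* fell after median centring (-0.80, adjusted p = 0.034), and *ECM31* rose after reference gene centring (0.46, adjusted p = 0.016).

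The synthetases that load these amino acids onto tRNA were also examined. Of 5, *VAS1*, for valine, fell by 0.51 (limma adjusted p = 0.0072) and *NAM2*, for leucine in mitochondria, rose by 0.99 (adjusted p = 0.0017). Each of these is 20% of the list, where 18.4% of all genes fell and 35.8% rose. *ILS1* (0.15) and *CDC60* (-0.24), for isoleucine and leucine in the cytosol, and *ISM1* (0.26), for isoleucine in mitochondria, did not pass. After reference gene centring *ILS1* (0.39, adjusted p = 0.038) and *ISM1* (0.51, 0.019) rose. *CDC60* fell after median centring (-0.69, adjusted p = 0.011) and with array weights (-0.32, 0.049).

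The lysine pathway of fungi has steps homologous to those of leucine. All 4 genes of these steps fell, beside 18.4% of all genes and 51.2% of the brightest 10%. Homocitrate synthases *LYS21* and *LYS20* had log2 fold changes of -0.93 and -0.42, homoaconitase *LYS4* had -0.71 and homoisocitrate dehydrogenase *LYS12* had -0.92. *LYS20* did not pass after quantile normalization (-0.13), reference gene centring (-0.17) or cyclic loess, where it was 0.086. Nor did it pass with the replicate block (adjusted p = 0.073) or without solvent replicate A (0.063), solvent replicate B (0.056) or pterostilbene replicate B (0.066). The paralogs *LYS20* and *LYS21* share a probe set, which was not used. Of 9 other genes of iron-sulfur enzymes, *LYS4* among them, 6 fell and 3 did not pass (18.4% of all genes and 51.2% of the brightest 10% fell), led by biotin synthase *BIO2* (-1.64) and the sulfite reductase subunit *MET5* (-1.41), with *RLI1* (-0.87) and *RIP1* (-0.61). *ACO1*, aconitase, which is related to *LEU1*, had -0.073 and did not pass.

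*GCN4* and genes of other amino acid families served as a wider background. *GCN4* had signals of 6590, 6685 and 6126 with pterostilbene and 5829.7, 5825 and 6078 with solvent. The groups did not overlap, yet the log2 fold change of 0.13 did not pass (limma adjusted p = 0.29). It was higher after quantile normalization (0.40, adjusted p = 0.022), reference gene centring (0.37) and cyclic loess (0.52), and lower after median centring (-0.32). Of 27 genes measured in this list, with 2 of the 29 listed not matched, 13 fell, 1 (*ASN1*, 0.37, but -0.079 after median centring) rose and 13 did not pass, with a median of -0.38. The share that fell, 48.1%, lay between those of all genes (18.4%) and of the brightest 10% (51.2%). The number that fell was 6 without solvent replicate A, 7 without pterostilbene replicate A, 8 without solvent replicate B and 6 with the replicate block, and *ASN1* lost its call without any 1 of the arrays except pterostilbene replicate C (adjusted p = 0.056 to 0.088). The numbers that fell and rose were 8 and 4 after quantile normalization, 6 and 6 after reference gene centring, 7 and 4 after cyclic loess and 21 and 0 after median centring. The deepest falls were in *LYS9* (-1.52), *LYS21*, *LYS12* and *HIS1* (-0.87). The pathway's own median of -0.55 lay below this value, and the difference between the lists was not tested.

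**Figure D5:**
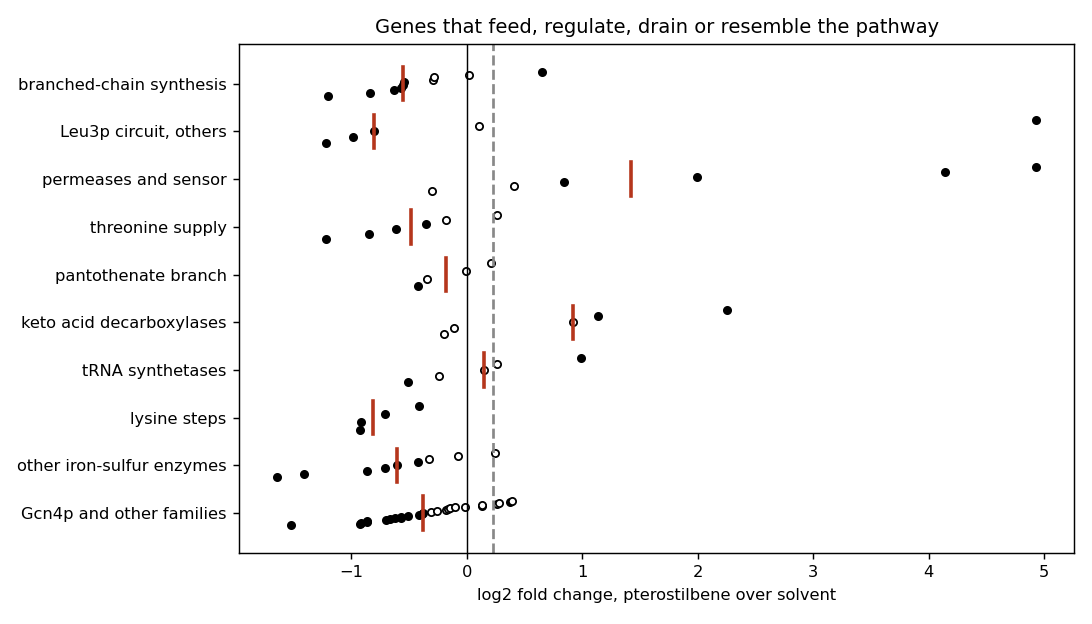
Log2 fold change, pterostilbene over solvent, of the pathway's genes (top row) and of genes of related lists. Each circle is a gene, filled where limma's adjusted p was under 0.05, vertical bars are list medians, and the dashed line is the median of all genes (0.22). Circles of *BAP2* stand at 4.93 in 2 lists, while 4 of 4 genes of the lysine steps homologous to leucine are below 0.

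Profiles over the 6 arrays were compared as well, with each gene's log2 signals centred on its own mean. The 3 genes nearest to *LEU2* were *ISU2*, a scaffold of iron-sulfur cluster assembly (Euclidean distance 0.0645, log2 fold change -1.23), *MVD1*, mevalonate pyrophosphate decarboxylase (0.104, -1.23), and *TRX1*, a thioredoxin (0.112, -1.15). The 3 nearest to *ILV5* were *RSM7*, of the mitochondrial ribosome (0.0965, 0.64), *AIM25* (0.0976, 0.60) and *SMM1*, a dihydrouridine synthase (0.1002, 0.67). These distances are over 2 groups of 3 arrays, share the same libraries and are given as a description.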

How the data were processed

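RNA of 3 pterostilbene and 3 solvent cultures was measured on 6 Yeast Genome S98 arrays (Affymetrix). The authors deposited linear intensity values, 1 signal per probe set, from the Affymetrix software (GCOS 1.1 per the labels). The summarisation algorithm, background step and scaling target are not given in the sources used here. All 6 value columns were used. Signals of 0, 23 in all, were raised to the smallest positive signal, 0.1, and log2 was taken. Of 9335 probe sets, 60 were controls and 9275 were tested with limma 3.58.1 in R 4.3.3. A gene was named by the platform annotation, with symbols of the RefSeq R64 table, and represented by its brightest probe set by mean log2 signal. Exact permutation tests used within-array differences. Chromosome coordinates served only to find the genes next to the members, and no sequences were used.

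All 10 members are named, with up to 4 passing genes per related list, lists of 6 or fewer in full, and the 3 genes nearest to the lowest and highest member. Members, lists and rules were chosen with earlier results of these data known. Alternatives were quantile, cyclic loess, median and reference gene (8 genes) scaling, a pseudocount of 8.7, leaving out the dimmest 25%, other moderation, array weights, the methods' t-test, averaged probe sets, a replicate block and leaving out each array. The reference genes were *ACT1*, *TAF10*, *ALG9*, *TFC1*, *UBC6*, *TDH3*, *PDA1* and *TUB1*. Of these 8, 2 fell (*TUB1*, -0.67, and *PDA1*, -0.42) and 6 did not pass, with a median log2 fold change of -0.24. Centring on them therefore raises the change of every gene. Probe sets annotated to several genes (328) or none (2443) named no gene. The limma script was tested on simulated data. The number of arrays limits the precision.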

Additional observations from a re-analysis of the deposited data

How the results depend on the processing

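Scaling moved the pathway's counts most. The number of genes that fell was 6 with the signals as deposited, 3 after quantile normalization, 3 after cyclic loess, 4 after reference gene centring, 8 with array weights and 9 after median centring, and the number that rose was 1, but 0 in limma after median centring (also 0 at an unadjusted p under 0.05). The median log2 fold change of the 10 genes was -0.33 after quantile normalization, -1.0004 after median centring, -0.30 after reference gene centring and -0.24 after cyclic loess, where the median of all genes was -0.13, -0.23, 0.47 and -0.036. The methods' t-test called 6 lower, with *ILV3* gained and *BAT1* lost, and 1 higher. Same-lettered arrays did not deviate together (correlations -0.036 to -0.0099), so letters were not taken as pairs. With the replicate block 5 genes fell, *LEU4* not passing (adjusted p = 0.058), and leaving out single arrays gave 5 to 7, with medians of -0.56 to -0.44. The sign turned under at least 1 alternative for 2 of the 10 genes, *ILV2* and *ILV3* (0.030 after cyclic loess), and for 26 of 66 related genes. Genes with a call on at least 1 of the 2 scales included *ILV2* (-0.44), *GCN4* (-0.32), *ARG1* (-0.32) and *ASN1* (-0.079) after median centring and *PDC1* (0.39) and *LYS20* (0.086) after cyclic loess. *BAT2* minus *BAT1* was -0.020 after quantile normalization, and *LEU9* minus *LEU4* was -0.99 after quantile normalization and -0.98 after cyclic loess. Centring does not change these differences within an array. The cause of these shifts was not tested. *ILV1*, *LEU1* and *LEU2* kept direction and call in all 17 alternatives run, as did *LEU9*, *OAC1*, *BAP2*, *BAP3*, *TAT1* and *AGP1*. Solvent signals of *BAP3* lay near the bottom of the scale, so the size of its rise is uncertain.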

Other observations

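The genes next to the members on their chromosomes were looked up in the RefSeq table. Of 18 measured neighbours, 6 rose, 5 fell and 7 did not pass limma's test, where 35.8% of all genes rose and 18.4% fell. One of those that fell, named after its value was seen, was *NFS1*, which lies next to *LEU2* and encodes the cysteine desulfurase of iron-sulfur cluster assembly. It had a log2 fold change of -0.80 (adjusted p = 0.0033). The deepest fall among the neighbours was that of *HMS2*, next to *BAT2* (-0.91, adjusted p = 0.0027). The largest rise was that of *SPG4*, next to *ILV2* (2.46, adjusted p = 0.0016).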
